A study of Mus musculus with 2 samples.

Results

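Wnt ligands, their receptors and the secreted proteins that tune them were followed in mouse colon after short feeding of psyllium, a viscous seed-husk fibre. The members were all probe sets that the platform annotation assigns to exactly 1 gene and whose symbol is that of a Wnt, Frizzled, Sfrp, Dkk or R-spondin gene, or of a named co-receptor, release factor or modulator. This gave 57 probe sets for 54 genes, of 41345 probe sets and 22180 genes on the array. They were 19 Wnt ligands, 2 ligand release genes (Porcn, Wls), 10 Frizzled receptors, 4 co-receptors (Lrp5, Lrp6, Ror1, Ror2), 11 secreted inhibitors, 4 R-spondins, and Lgr4, Lgr6 and Znrf3. The symbol pattern also took in Fzd10os, a transcript annotated on the strand opposite Fzd10, which is no receptor.

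The series compared 2 groups of male ICR mice, an outbred stock, aged 7 weeks. One was given a diet holding 10% psyllium over 5 days, and the other the diet without it. Total RNA of the colon was hybridised to 1 array per diet. The number of mice behind each array, the stretch of colon taken and whether the muscle wall was kept are not given in the sources used here. With 1 array per diet no difference has a replicate check, so no error, test or p-value is given, and every difference is between these 2 arrays.

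Wnt proteins are lipid-modified secreted signals. Porcn attaches the lipid and Wls carries the ligand to the cell surface, where it binds a Frizzled receptor together with Lrp5 or Lrp6 and stabilises beta-catenin, or acts through Ror receptors without it. R-spondins strengthen the signal by binding Lgr receptors and the ligase Znrf3, which would otherwise remove Frizzled from the membrane. Sfrp proteins, Frzb and Wif1 bind Wnt ligands outside the cell, Dkk1 blocks Lrp5 and Lrp6, and Notum cleaves the lipid off. In the colon this system maintains the stem cells of the crypt, and much of the ligand and R-spondin comes from stromal cells beneath the epithelium.

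Of the 25 members past a filter on low levels, 22 (88%) were within 1.5-fold, beside 94.0% of all genes past it. Those highest on psyllium were a ligand-binding inhibitor, a non-canonical receptor and an R-spondin. Values are normalised intensities, and differences are log2 psyllium minus log2 control. A level filter kept the 11090 genes whose mean log2 intensity over both arrays was at or above the median of all genes, an intensity of 64.4. Of the 54 members 25 were past it. Among these 25, 3 were at least 1.5-fold higher on psyllium (12%), beside 3.72% of all genes past the filter. The larger share of members rests on 3 genes and was not tested. One of the 3, Frzb, passed the filter through its psyllium value alone, and with the filter set on each array separately the count was 2 of 22, beside 3.33% of all genes. None of the 25 was at least 1.5-fold lower, beside 2.26% of all genes. The 25 had a median difference of 0.08 and ran from -0.40 to 1.05, and 15 were above 0 (60.0%). Over all genes past the filter the median was -0.04 and 42.5% were above 0. Of the 15, Frzb, Wnt10a and Fzd3 passed the filter through their psyllium values alone, which raises the member share above 0. With the filter set on each array separately the member median was 0.05, beside -0.04 over all genes. The SD across genes was 0.35 for the members and 0.32 for all genes.

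The 3 genes were Frzb, Ror2 and Rspo3. Frzb, a secreted Frizzled-related protein that binds Wnt ligands, had an intensity of 99.9996 on the psyllium array, against 48.3 on the control array, a difference of 1.05 (2.07-fold higher). It was the 1 member past the filter that reached 2-fold, a size that 1.01% of all genes past the filter reached upward. Its control value was under the filter's intensity, which leaves the size of the fold uncertain. Ror2, a receptor tyrosine kinase that binds Wnt5a, had 196 on psyllium and 119 on control, a difference of 0.72 (1.65-fold higher). Rspo3, the R-spondin of crypt-base stroma, had 113 on psyllium and 74.2 on control, a difference of 0.60 (1.52-fold higher). Rspo3 lay just past the 1.5-fold threshold of 0.585, and the next member past the filter was Rspo1 at 0.42. Below the filter, Fzd2 at 0.55 lay nearest under the threshold. With the arrays centred on their medians Rspo3 was at 0.579, and with a pseudocount of 16 at 0.51, both under the threshold. Of all genes past the filter, 101 had a higher difference than Frzb, 251 a higher one than Ror2 and 388 a higher one than Rspo3.

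**Figure D1:**
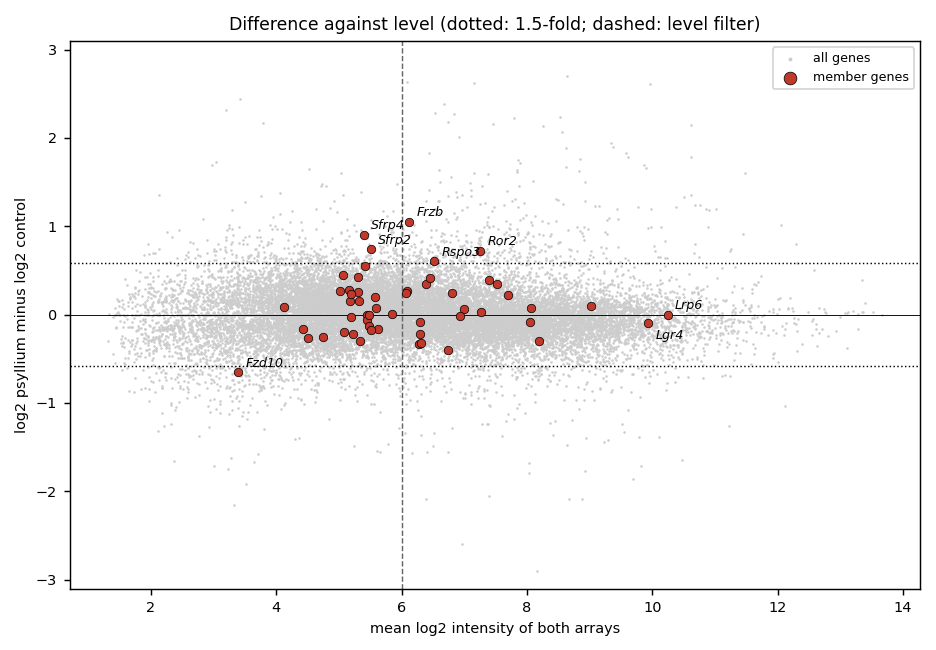
Log2 psyllium minus log2 control (y axis) against the mean log2 intensity of both arrays (x axis), for all 22180 genes in grey and the 54 member genes in red, with 1 array per diet and no error bars. The red points sit within the grey cloud, with Frzb at 1.05, Ror2 at 0.72 and Rspo3 at 0.60 above the 1.5-fold line to the right of the level filter.

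No start region was available for Rspo3, or for Sfrp4, an inhibitor described below. Start regions are shown for the other members that were at least 1.5-fold higher on psyllium: Frzb, Ror2 and Sfrp2, also an inhibitor described below. They are the 250 bases before the annotated gene start, on the gene's strand, from RefSeq on GRCm38.p6: chr2:80447397-80447646 on the minus strand for Frzb, chr13:53286125-53286374 on the minus strand for Ror2, and chr3:83766071-83766320 on the plus strand for Sfrp2. Capitals mark, on either strand, GGGCGG (the GC box), CTTTGA (the core of TCF and LEF sites) and TGACTCA (the AP-1 site).
Frzb: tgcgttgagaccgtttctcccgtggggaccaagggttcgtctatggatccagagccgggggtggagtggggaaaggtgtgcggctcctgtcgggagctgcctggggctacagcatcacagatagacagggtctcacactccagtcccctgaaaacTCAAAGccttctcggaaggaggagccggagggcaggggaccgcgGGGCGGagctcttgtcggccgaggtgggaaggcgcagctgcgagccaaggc
Ror2: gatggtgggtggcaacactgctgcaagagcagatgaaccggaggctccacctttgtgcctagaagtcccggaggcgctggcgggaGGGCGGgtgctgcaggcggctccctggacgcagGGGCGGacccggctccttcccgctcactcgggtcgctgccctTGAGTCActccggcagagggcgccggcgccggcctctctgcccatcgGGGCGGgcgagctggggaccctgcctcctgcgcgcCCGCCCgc
Sfrp2: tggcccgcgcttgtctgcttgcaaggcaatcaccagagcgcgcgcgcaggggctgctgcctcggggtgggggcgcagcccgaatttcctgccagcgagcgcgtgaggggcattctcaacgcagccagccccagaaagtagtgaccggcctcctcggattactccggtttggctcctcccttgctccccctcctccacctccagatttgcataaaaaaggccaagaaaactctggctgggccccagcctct
The Frzb region held 1 GC box and 1 TCF and LEF core, the Ror2 region held 4 GC boxes and 1 AP-1 site, and the Sfrp2 region held none of these. Over the 37 start regions of the 34 members that the table holds, the GC box was present in 27 (73.0%), beside 32.7% of all 32851 start regions. The TCF and LEF core was present in 6 (16.2%), beside 13.8%, and the AP-1 site in 2 (5.41%), beside 4.46%. CATTCC, the core of TEAD sites, was in 1 (2.70%), beside 12.6% of all. TATAAA, the TATA box, was in 5 (13.5%), beside 12.4% of all. All motifs were read on both strands, and none of these 5 motifs is contained in another. Member start regions were rich in CpG, with a median of 21 CpG sites, against 6 over all start regions, and Frzb, Ror2 and Sfrp2 had 16, 24 and 16. Of the 37 regions 34 (91.9%) had more CpG sites than that overall median, beside 46.3% of all start regions, so GC-rich starts were common to members that were higher, lower or nearly equal on psyllium. These are matches of letters, not measured binding.

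**Figure D2:**
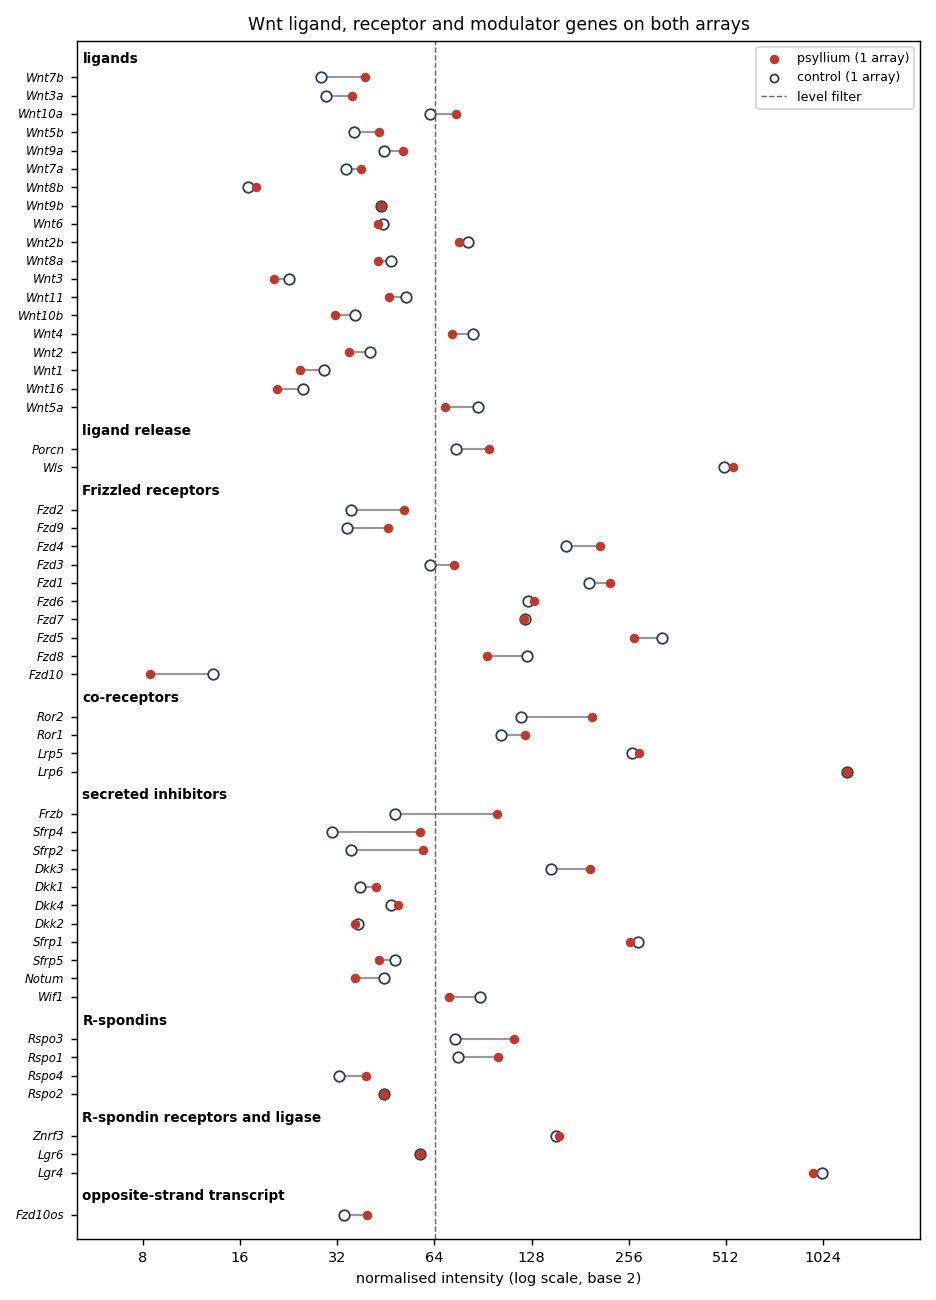
Normalised intensity (x axis, log scale) of the 54 member genes by role, with filled red points for the psyllium array and open points for the control array, 1 array each and no error bars. Frzb, Sfrp4, Sfrp2, Ror2 and Rspo3 show the widest rightward gaps on psyllium, while Lrp6, Lgr6, Rspo2 and Wnt9b overlap.

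Wnt ligands were mostly dim and none of the 19 differed by 1.5-fold. Without a filter 3.42% of all genes were higher and 2.80% lower by that size. With 19 genes, a count of 0 cannot be set apart from these shares. The 4 past the filter were Wnt10a, Wnt2b, Wnt4 and Wnt5a, with a median of -0.15. Wnt5a, the best-known non-canonical ligand, had 69.2 on psyllium and 87.3 on control, a difference of -0.33. Wnt4 had 72.7 on psyllium and 84.4 on control, a difference of -0.21. Wnt2b, a canonical ligand of the gut mesenchyme, had 76.5 on psyllium and 81.0 on control, a difference of -0.08. These 3 were lower on psyllium, while Wnt10a was higher, with 74.5 on psyllium and 62.1 on control, a difference of 0.26. Wnt10a passed the filter through its psyllium value alone. With the filter set on each array separately it dropped out, and the ligand median was -0.21. Ror2 and its ligand Wnt5a thus went opposite ways, by 0.72 and -0.33. The 15 ligands below the filter had intensities between 16.9 and 52.1 and differences between -0.27 and 0.45, and at such levels no direction is read from them. Over all 19, 7 were above 0, 11 below 0 and 1 at 0.

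The genes for releasing ligands were both higher by less than 1.5-fold. Porcn, the enzyme that adds the lipid, had 94.6 on psyllium and 74.6 on control, a difference of 0.34. Wls, the carrier of all lipid-modified Wnts, had 540 on psyllium and 506 on control, a difference of 0.09.

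Frizzled receptors went both ways. Of 10 measured, 7 were past the filter, with a median of 0.06. None of the 7 differed by 1.5-fold, beside 3.72% of all genes past the filter higher and 2.26% lower. Fzd4, also the receptor for norrin in vessels, had 209 on psyllium and 164 on control, a difference of 0.35. Fzd3, known from planar polarity, had 73.7 on psyllium and 61.9 on control, a difference of 0.25. Fzd1 had 224 on psyllium and 193 on control, a difference of 0.22. These 3 were the receptors past the filter with the more positive differences, though Fzd3 passed it through its psyllium value alone. Fzd6, a polarity receptor, had 130 on psyllium and 124 on control, a difference of 0.06. Fzd7, a receptor of intestinal stem cells, had 121 on psyllium and 122 on control, a difference of -0.02. Both were close to equal on the arrays. Fzd5, known for its role in Paneth cell maturation, was lower on psyllium, with 266 on psyllium and 325 on control, a difference of -0.29. Fzd8 had 93.4 on psyllium and 124 on control, a difference of -0.40, the lowest of the 25 members past the filter. Below the filter Fzd2 and Fzd9 differed by 0.55 and 0.43. Fzd10, at intensities of 8.40 on psyllium and 13.2 on control, differed by -0.65. That is past 1.5-fold, but at the lowest intensities of any member on both arrays. Fzd10os differed by 0.23, also below the filter.

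Among co-receptors Ror2 stood apart from the other 3. Ror1, its relative, had 122 on psyllium and 103 on control, a difference of 0.24. Lrp5 had 276 on psyllium and 261 on control, a difference of 0.08. Lrp6 had 1216 on psyllium and 1217 on control, a difference of -0.00037. The canonical co-receptors were therefore nearly equal on the arrays. A second probe set of Lrp6, with 141 on psyllium and 158 on control, differed by -0.17.

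Of the R-spondins the 2 past the filter were both higher on psyllium. After Rspo3 came Rspo1, a stem cell growth factor, with 101 on psyllium and 75.5 on control, a difference of 0.42. Rspo4 and Rspo2 lay below the filter with differences of 0.28 and 0, and no direction is read from them. Their receptor Lgr4, which the crypt expresses broadly, had 951 on psyllium and 1015 on control, a difference of -0.09. Znrf3, the ligase that R-spondins remove, had 156 on psyllium and 152 on control, a difference of 0.03. The receptor and the ligase thus differed far less than Rspo3 and Rspo1 did. Lgr6, below the filter, differed by 0.01.

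Secreted inhibitors held the 3 most positive differences of the 54 members as reported, those of Frzb, Sfrp4 and Sfrp2. The third place was not settled, since Ror2 at 0.72 lay close under Sfrp2 at 0.74. Ror2 lay above Sfrp2 with the mean of probe sets, at 0.72 against 0.55, and with a pseudocount of 16, at 0.65 against 0.55. It also did so after quantile normalisation and after removal of an intensity trend. Of 11 measured, 4 were past the filter, with a median of 0.15 and differences from -0.32 to 1.05. After Frzb came Dkk3, a divergent Dkk protein, with 193 on psyllium and 147 on control, a difference of 0.40. Sfrp1 had 258 on psyllium and 274 on control, a difference of -0.09. Wif1, which binds Wnt ligands directly, had 71.0 on psyllium and 88.6 on control, a difference of -0.32. So Frzb and Dkk3 were higher and Sfrp1 and Wif1 lower, and the inhibitors did not go 1 way. Without Frzb, as under the filter on each array, their median was -0.087. Below the filter Sfrp4 had 57.9 on psyllium and 30.9 on control, a difference of 0.91 (1.87-fold higher). Sfrp2 had 59.1 on psyllium and 35.3 on control, a difference of 0.74 (1.67-fold higher). Its second probe set agreed in direction with a smaller difference of 0.35, having 37.2 on psyllium and 29.1 on control. Sfrp4 and Sfrp2 were the 2 members below the filter that were at least 1.5-fold higher, of 29, and Fzd10 the 1 that was lower. Of all genes below the filter 3.12% were higher and 3.35% lower by that size. The other 5 inhibitors below the filter, Dkk1, Dkk2, Dkk4, Sfrp5 and Notum, lay between -0.29 and 0.16.

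Marker genes of the colon wall moved alongside these members. Of 14 smooth muscle markers 13 were at least 1.5-fold higher on psyllium (92.9%), beside 3.72% of all genes past the filter. The 14 had a median of 1.29 and a summed intensity of 29912 on psyllium and 12273 on control. Of 14 fibroblast and matrix markers 13 were past the filter and 11 of these at least 1.5-fold higher (84.6%, beside the same 3.72%). The 13 had a median of 1.5, and the sums over all 14 were 13835 on psyllium and 5178 on control. Vcan and Mfap5 passed the filter through their psyllium values alone. Of all genes past the filter 42.5% were above 0. Epithelial markers had a median of -0.29, with 16 of 18 below 0 and sums of 48323 on psyllium and 52324 on control. All 18, the colonocyte genes Car1 and Slc26a3 and the mucin Muc2 among them, were past the filter, as colon RNA should show. Of 5 measured mesothelial markers 2 were past the filter, Upk3b at 0.66 and Upk1b at 0.90. Both passed it through their psyllium values alone, so their being higher follows in part from the filter. Over all 5, 4 were above 0 and 1 below 0, from -0.04 to 0.90, with sums of 345 on psyllium and 234 on control. All 8 macrophage markers were above 0, with a median of 0.42. The 3 T cell markers past the filter were below 0, with a median of -0.84, though Cd4 passed it through its control value alone. The median of 10 endothelial markers past the filter was 0.03, that of 3 pacemaker cell markers 0.38, that of 3 skeletal muscle markers 0.80 and that of 4 Paneth cell markers 0.03. The 2 enteric neuron and glia markers past the filter had a median of -0.09, and the 1 adipocyte marker differed by 0.26. No value of the table was 0, and the lowest marker values of the muscle, fibroblast, epithelial and mesothelial lists were 30.7 on psyllium and 31.6 on control. Frzb, Ror2, Rspo3, Sfrp4 and Sfrp2 were thus higher on the array where muscle, matrix and 4 of 5 mesothelial markers were also higher. Each differed by less than the smooth muscle and fibroblast medians. Of the 25 members past the filter 15 were above 0 and 10 below 0, from 1.05 for Frzb to -0.40 for Fzd8. The part of the tissue's makeup in these differences was not tested, and in such bulk RNA fewer cells of a type and less RNA per cell cannot be told apart.

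**Figure D3:**
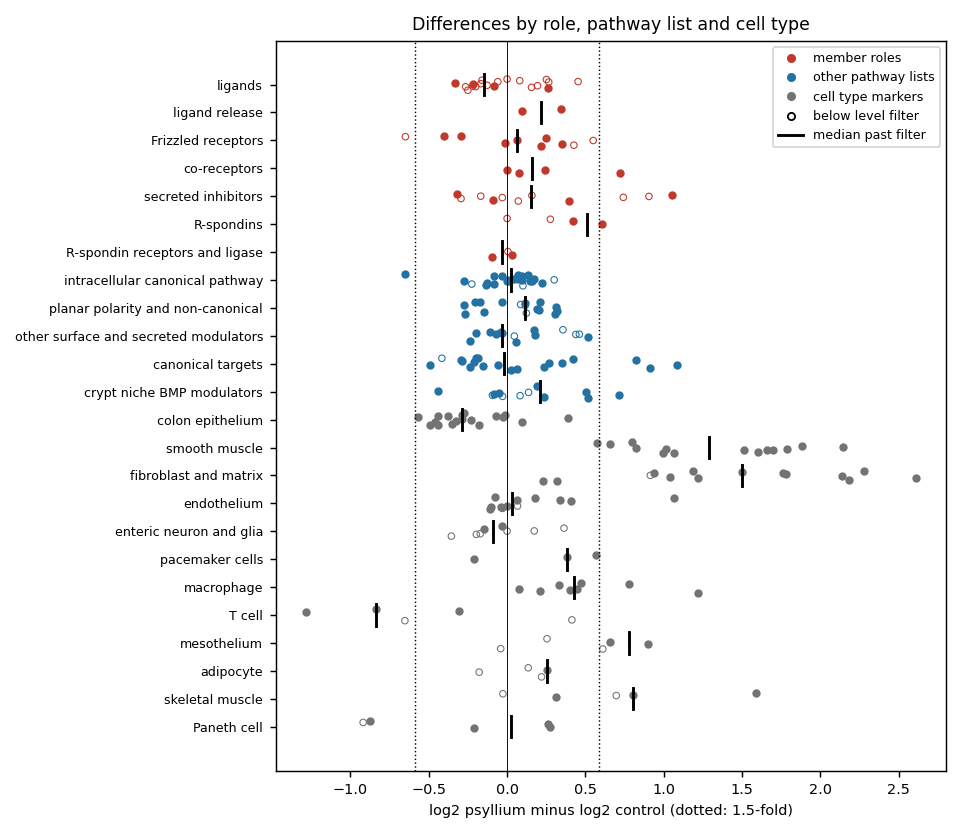
Log2 psyllium minus log2 control (x axis) of every gene in the member roles (red), other pathway lists (blue) and cell type markers (grey), with filled points past the level filter, open points below it and a black bar at the median of the filled points, 1 array per diet. The member roles and pathway lists have medians between -0.15 and 0.22, apart from 0.51 for the R-spondins, while the smooth muscle and fibroblast medians lie at 1.29 and 1.5.

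Inside the cell the canonical pathway differed about as little as all genes did. Of 26 listed genes 23 had a probe set of their own and 20 were past the filter, with a median of 0.03. Of the 20, 19 (95%) were within 1.5-fold, beside 94.0% of all genes past the filter. None was at least 1.5-fold higher (beside 3.72% of all genes), and 1 was lower (5%, beside 2.26%). This was Tcf7l2, the main transcription factor partner of beta-catenin in the gut epithelium, with 220 on psyllium and 345 on control, a difference of -0.65. Beta-catenin itself, Ctnnb1, differed by -0.08. Planar polarity and other non-canonical genes had a median difference of 0.11. None of the 13 past the filter reached 1.5-fold in either direction, and the cytoskeletal switches Rhoa and Rac1 differed by 0.11 and -0.15. For other surface and secreted modulators the median was -0.03, and again none of the 10 past the filter reached 1.5-fold. With 13 and 10 genes, a count of 0 cannot be set apart from the shares of all genes. Of these 10 the ligase Rnf43 differed by -0.20 and the ciliary protein Tmem67 by 0.06.

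Canonical Wnt targets were split. Of 18 past the filter 3 were at least 1.5-fold higher on psyllium (16.7%, beside 3.72% of all genes) and none lower (beside 2.26%). Their median was -0.02, with 9 on each side of 0. The larger share of targets called higher rests on 3 genes and was not tested. Nkd2 had 152 on psyllium and 71.9 on control, a difference of 1.08. Nkd1 had 175 on psyllium and 98.8 on control, a difference of 0.82. Both encode naked cuticle proteins, which bind Dishevelled and damp the pathway. Cd44, with 848 on psyllium and 450 on control, differed by 0.91. It encodes a hyaluronan receptor that leukocytes and stromal cells carry as well as crypt cells. The other 15 lay between -0.49 for Cdx2 and 0.42 for Smoc2. Among these, targets known from crypt stem and progenitor cells, named here after their values were seen, went both ways. Lgr5, Ascl2 and Rnf43 differed by -0.24, -0.29 and -0.20, and Smoc2, Sox9, Ephb3 and Tnfrsf19 by 0.42, 0.27, 0.23 and 0.02. A dimmer second probe set of Lgr5 was identical on both arrays, at 49.4. Axin2, the most general feedback target, differed by -0.19 on 1 probe set and by 0.36 on its other one (75.4 on psyllium and 58.9 on control), so it had no settled direction.

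Among the partner signals of the crypt niche, the median of BMP modulators was 0.21. Of the 8 past the filter 1 was at least 1.5-fold higher (12.5%, beside 3.72% of all genes) and none lower (beside 2.26%). With 8 genes, 1 call cannot be set apart from the background. That gene was Grem1, a BMP antagonist made by stromal and muscle cells under the crypt, with 215 on psyllium and 131 on control, a difference of 0.71. Its difference lay between those of Ror2 and Rspo3.

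**Figure D4:**
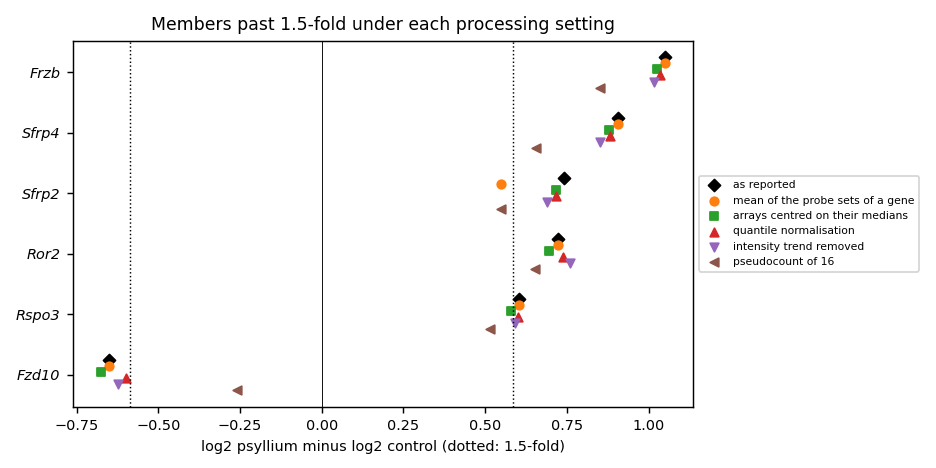
Log2 psyllium minus log2 control (x axis) of the 6 members past 1.5-fold as reported and under the 5 other settings that can change a gene's value, 1 array per diet. Frzb, Sfrp4 and Ror2 stay right of the upper dotted line at every setting, whereas Sfrp2, Rspo3 and Fzd10 cross a line at some of them.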

How the data were processed

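Total RNA of mouse colon was measured on 2 whole-transcript arrays, 1 per diet. The values deposited by the authors are normalised intensities of probe sets, on a linear scale. The submitters' processing notes give RMA and Affymetrix Expression Console as tools, with no version. How RMA was run and the build are not given in the sources used here. If the arrays were equalised, differences are relative to the bulk of genes. Intensities ran from 1.76 to 13841 on psyllium and from 1.92 to 13675 on control, and the number of arrays limits the precision.

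Intensities were converted to log2 without a pseudocount. Probe sets were named from the platform annotation. Current symbols came from a RefSeq table (GRCm38.p6), matched on gene number, and it held all 54 members. Where a gene had more than 1 probe set, that of the highest mean log2 intensity stood for it. The level filter used the mean of both arrays. Frzb, Wnt10a and Fzd3 were under its intensity on control and passed through their psyllium values. A count used a fold of 1.5 or 2. Every member past the filter or past 1.5-fold was named. In each other list, the largest differences of at least 1.5-fold past the filter were named, at most 4 of them, or failing that the 2 genes of highest level. Ctnnb1, Axin2 and the stem and progenitor cell targets were named outside this rule, after their values were seen. Members and lists were chosen with earlier results of these data known. The computation was checked on shuffled differences with known folds put in, which tests the arithmetic and not the reliability of any difference. Python 3.11.15, pandas 2.3.3, numpy 2.4.6, statsmodels 0.14.6 and matplotlib 3.10.9 were used.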

Additional observations from a re-analysis of the deposited data

How the results depend on the processing

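The results were recomputed under 8 alternatives. Of these, 3 changed the filter and 5 could change a gene's value. Without the level filter 5 members were at least 1.5-fold higher on psyllium and 1 was lower, of 54, beside 3.42% and 2.80% of all genes. With the filter set on each array separately Frzb dropped out, since its control value was too low, and the median of secreted inhibitors was -0.087. The count of members higher was 2 of 22 there (3.33% of all genes), 2 of 25 with arrays centred on their medians (3.40%) and 2 of 25 with a pseudocount of 16 (3.05%). Rspo3 was the gene lost under the last 2, at 0.579 and 0.51. The count was 3 of 25 under the other 4 alternatives, where 3.56% to 4.03% of all genes were higher. The member median ranged from 0.05 to 0.14. The ligand median stayed below 0 under all 8, from -0.21 to -0.08. The median of canonical targets was 0.06 with the mean of probe sets.

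Of 140 values of the 28 named members under the 5 alternatives, 135 moved by less than 0.16, the median gap between probe sets of a gene over 332 genes. Many of these could not have moved further. Centring on medians shifts every gene by the same small amount, and averaging probe sets can move only Lrp6 and Sfrp2 among these members. The count is therefore no measure of stability. With a pseudocount of 16, Frzb was 0.85, Sfrp4 0.66, Sfrp2 0.55 and Fzd10 -0.26, since added intensity shrinks dim genes most. The mean of probe sets gave 0.55 for Sfrp2. Lrp6 and Fzd7 changed sign at sizes near 0. No paired analysis was possible because each diet has 1 array. For the same reason no replicate could be left out. The 29 members below the filter are limited by their low signal.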

Other observations

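Ligand genes that neighbour each other, with no other protein-coding gene between them in the RefSeq table of GRCm38.p6, formed 4 pairs. Wnt10b and Wnt1 differed by -0.20 and -0.25, and Wnt3a and Wnt9a by 0.27 and 0.19. Wnt6 and Wnt10a differed by -0.06 and 0.26, and Wnt9b and Wnt3 by 0 and -0.16. Of these 8 genes Wnt10a was the 1 past the level filter, so no direction is read from the pairs.

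For Rspo2 and Wnt9b the deposited intensities of the psyllium and the control array were identical, 44.8 and 43.8. Identical values occurred in 1013 of the 41345 probe sets.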
